A study of Mus musculus with 6 samples.

Results

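Cytochrome P450 family 2 is the largest P450 family of the mouse, and its genes were described here by subfamily in livers that lack Dicer in hepatocytes and in control livers. Members were the genes whose symbol is Cyp2 followed by 1 letter and a number, without a pseudogene suffix. This gave 48 of 50600 genes, in 13 subfamilies. The largest were Cyp2c with 15 genes, Cyp2d and Cyp2j with 8 each, Cyp2b with 5 and Cyp2a with 4, and the letters e, f, g, r, s, t, u and w had 1 gene each.

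RNA was sequenced from whole liver of C57BL/6 mice at an age of 1 month. The 3 Dicer LKO (liver-specific knockout) libraries carried the genotype Dicerloxp/loxp;Alb-cre: both Dicer alleles are flanked by loxP sites, and Cre recombinase is expressed from the promoter of albumin, a gene of hepatocytes. The 3 control libraries carried the same Dicerloxp/loxp alleles with no Cre named, so both groups share the modified locus. Which cells of the liver besides hepatocytes carry the deletion was not tested. Dicer cuts precursors of microRNAs into their mature form. The replicates are separate samples by their titles. No label says that each came from its own animal, so each p-value reflects only how these libraries vary, and part of that may be technical.

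P450 enzymes of family 2 sit in the membrane of the endoplasmic reticulum, bind haem, and insert an oxygen atom into their substrate with electrons from P450 oxidoreductase (Por) and cytochrome b5. In the liver they oxidise drugs, toxins, steroids, bile acids and fatty acids such as arachidonic acid. Many of the genes arose by recent duplication and lie side by side in clusters, so paralogs can be close to identical in sequence. In rodents several of them are known to be sex-biased, through the sex-specific pattern of growth hormone release, and several are induced by foreign compounds through the nuclear receptors CAR (Nr1i3) and PXR (Nr1i2). Some are found mainly in hepatocytes near the central vein, such as Cyp2e1, and some nearer to the portal vein, such as Cyp2f2.

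The deposited tables hold 14141973 to 25049749 counts per library, control replicate 3 having the fewest. In that library mitochondrial genes took 10.2% of the counts, against 4.62% to 6.46% in the other 5. Dicer1 was at 28.9, 31.2 and 24.4 CPM in Dicer LKO replicates 1, 2 and 3, and at 42.5, 69.3 and 56.1 CPM in the controls (CPM, a gene's count relative to the total of its library after scaling), with no overlap and an adjusted p of 0.0622. Whole-gene counts of Dicer1 do not separate exons inside and outside the loxP sites, and whole liver holds cells other than hepatocytes. The source of the Dicer1 counts in the Dicer LKO libraries was not tested. All 6 libraries had Ddx3y between 85.1 and 121 CPM and Xist at or under 0.27 CPM, the pattern of male tissue. Of 10 hepatocyte markers, such as Alb, 9 were found and none passed the test. Their sums were 101591, 106994 and 101160 CPM in Dicer LKO and 101582, 77084 and 60648 CPM in the controls, control replicate 3 being lowest. In whole liver, fewer cells of a type and less RNA per cell cannot be told apart.

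Of the 48 members, 32 had enough counts to be tested. The other 16 did not pass the filter on low counts. Among these, Cyp2b19, Cyp2b23, Cyp2c66, Cyp2d34, Cyp2j7, Cyp2j11, Cyp2j12, Cyp2t4 and Cyp2w1 had 0 counts in all 6 libraries. A count of 0 allows up to 3 counts, which is 0.12 to 0.19 CPM depending on the library, and covers counting error only. The 7 untested members with counts (Cyp2b13, Cyp2c65, Cyp2d11, Cyp2d12, Cyp2j8, Cyp2j13 and Cyp2s1) reached at most 34 counts in a library. By TPM, the deposited transcript abundance corrected for gene length, 12 members lay above 100 on average over the 6 libraries, 19 lay between 1 and 100, and 17 lay under 1.

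A member was called changed where edgeR's quasi-likelihood test gave an adjusted p under 0.05 over all 14314 genes tested (Benjamini-Hochberg). At this threshold 1 member rose, Cyp2c38, and 1 fell, Cyp2u1, so 2 of 32 members were called where 1.29% of all genes were (0.741% higher and 0.552% lower). The log2 fold changes (Dicer LKO minus control) of the 32 ran from -2.24 to 5.18. Of these, 16 were positive and 16 negative, and their median was 0.02, against -0.01 over all genes. The libraries of the groups did not overlap for 13 members, 7 higher and 6 lower in Dicer LKO, where 28% of all genes tested showed no overlap (12.7% higher and 15.4% lower). For 8 of these the fold change was also at least 1 on the log2 scale, a combination that 7.78% of all genes showed. An unadjusted p under 0.05 was reached by 13 members and by 21% of all genes. A gene that is expressed in 1 group only passes the filter through that group, so these counts describe the members that passed and support no statement on the family.

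**Figure D1:**
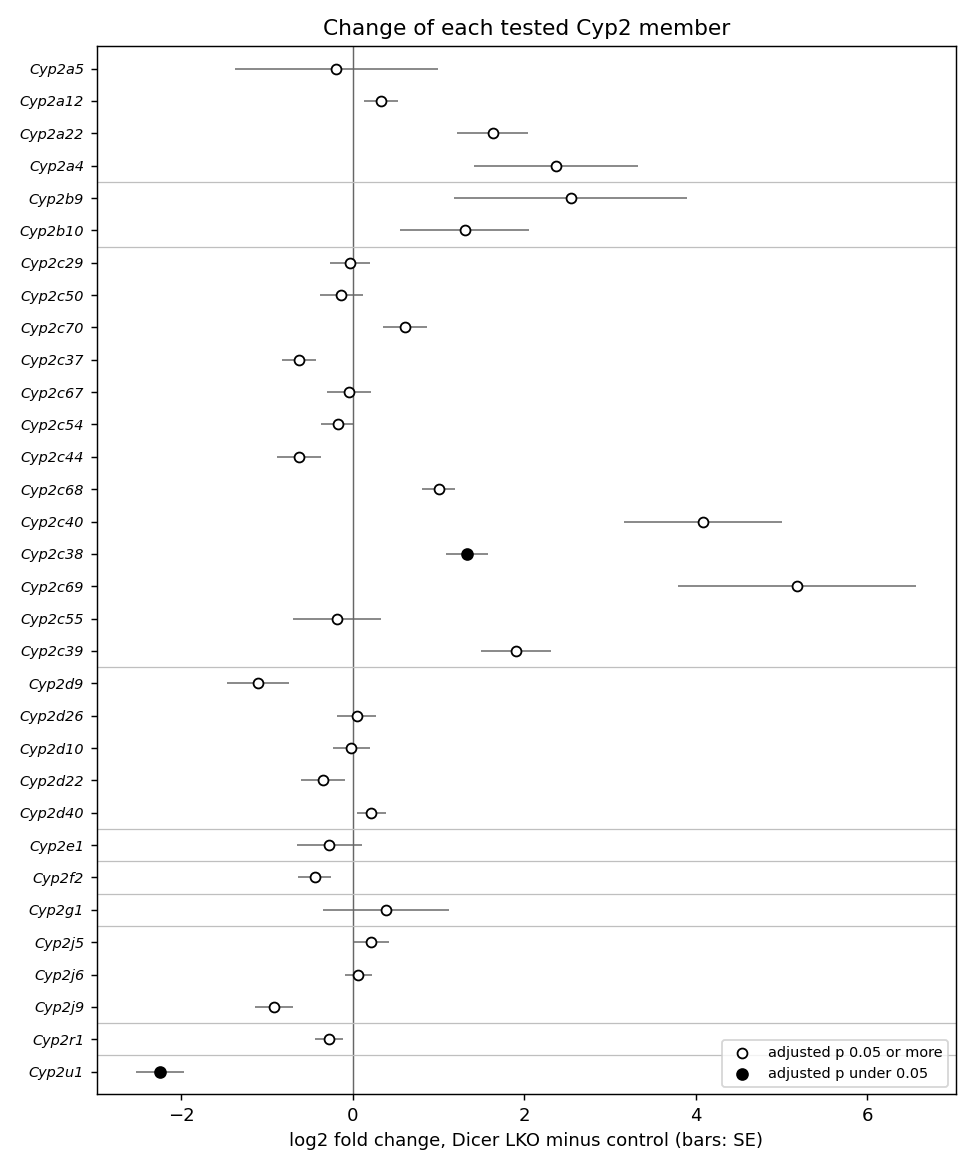
Log2 fold change of each tested Cyp2 member (Dicer LKO minus control, horizontal axis) with its standard error as a bar, grouped by subfamily and ordered within it by mean TPM. Filled points have an adjusted p under 0.05: only Cyp2c38 at 1.34 and Cyp2u1 at -2.24 are filled, and Cyp2c69 and Cyp2c40 lie farthest to the right with long bars.

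For the family as a whole, the groups differed by less than the spread of their libraries. The counts of all members added up to 13168, 8665 and 13808 CPM in Dicer LKO replicates 1, 2 and 3, and to 16134, 13546 and 10006 CPM in the controls. The groups overlapped, Dicer LKO replicate 2 being lowest and control replicate 3 next. The sum gave a log2 fold change of -0.15 (SE 0.31, adjusted p = 0.815), in a table of which 1.26% of rows were called. Without Dicer LKO replicate 2 it was 0.07, without control replicate 1 it was 0.01, and the call did not change. The share of family 2 in all counts was 0.776% to 1.38% in Dicer LKO libraries and 1.11% to 1.62% in control libraries.

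The counts of paralogs were also added up by subfamily, because a sum does not depend on how reads that match several members were divided among them. Of the 10 subfamilies with enough counts, only Cyp2u, a single gene, passed the test, where 1.29% of the rows of that table passed. The Cyp2c sum was at 3404 ± 176 CPM (SD, n = 3) in Dicer LKO and 3278 ± 328 CPM (n = 3) in the controls, with a log2 fold change of 0.05 (SE 0.22, adjusted p = 0.916). Cyp2c38, the called gene of this subfamily, makes up a small part of that sum. The Cyp2b sum ranged from 2.81 to 46.5 CPM in Dicer LKO and from 0.432 to 6.31 CPM in the controls, and its log2 fold change of 2.47 (SE 1.27) had an adjusted p of 0.336. Cyp2d gave -0.34, Cyp2f -0.44, Cyp2e -0.27, Cyp2r -0.27, Cyp2a 0.04, Cyp2j 0.18 and Cyp2g 0.39, none of which passed. The signs for Cyp2a and Cyp2c turn when library totals alone set the scale (-0.02 and -0.06), a scaling under which the median over all genes moves from -0.01 to -0.13.

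**Figure D2:**
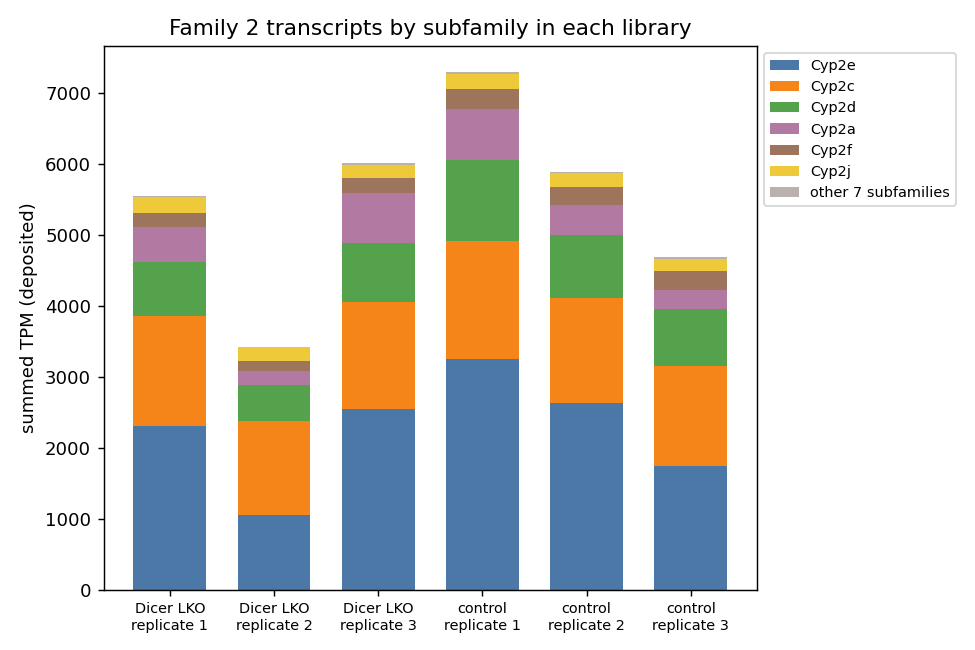
Summed deposited TPM of family 2 in each library (bars, vertical axis from 0), split by subfamily, with the 7 subfamilies of lowest level joined. Cyp2e1 and the Cyp2c genes make up most of every bar, and Dicer LKO replicate 2 has the lowest bar at 3428 TPM against 7301 TPM in control replicate 1.

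Cyp2e1 oxidises ethanol, acetone and paracetamol in hepatocytes around the central vein, and it was the most abundant member in both groups. It was at 5486, 2696 and 5847 CPM in Dicer LKO replicates 1, 2 and 3, and at 7173, 6058 and 3701 CPM in the controls. Dicer LKO replicate 2 was lowest and control replicate 3 next, and the other Dicer LKO libraries lay inside the control range. Per length it stood at 1970 ± 803 TPM (SD, n = 3) in Dicer LKO and 2543 ± 759 TPM (n = 3) in the controls, which was 30.7% to 42.4% of the family's TPM in Dicer LKO libraries and 37.1% to 44.8% in control libraries. Its log2 fold change was -0.27 (SE 0.38, adjusted p = 0.729), and 0.05 without Dicer LKO replicate 2.

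In order of TPM, Cyp2c29 came next, followed by Cyp2c50, Cyp2d9, Cyp2d26, Cyp2c70, Cyp2a5, Cyp2f2, Cyp2d10, Cyp2a12, Cyp2j5 and Cyp2c37, averaged over all 6 libraries. In the controls the step from Cyp2e1 to Cyp2c29 (444 ± 82.4 TPM, n = 3) was larger than the spread, whereas the ranges of neighbours below it, such as Cyp2d9 (376 ± 74.2 TPM) and Cyp2c50 (323.9 ± 18.96 TPM), touched. In Dicer LKO, Cyp2d9 stood at 164 ± 76.9 TPM, below Cyp2c70 at 295 ± 80.5 TPM and Cyp2d26 at 263 ± 44.9 TPM.

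Cyp2u1, an omega-hydroxylase of long-chain fatty acids and the only member of its subfamily, was the member with the largest fall. The gene (ENSMUSG00000027983.13) lies on chromosome 3, 131288441 to 131303227, minus strand (GRCm38). It was at 17.9, 13.4 and 21.1 CPM in Dicer LKO replicates 1, 2 and 3, and at 78.8, 56.9 and 113 CPM in the controls. All Dicer LKO libraries were low, and the highest of them was well below the lowest control. The means were 17.5 ± 3.84 and 82.9 ± 28.3 CPM (SD, n = 3 each), a log2 fold change of -2.24 (SE 0.28, adjusted p = 0.0201). By length-corrected level the gene is minor for the family, at 3.23 ± 0.903 TPM in Dicer LKO and 15.9 ± 5.65 TPM in the controls.

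The fall of Cyp2u1 kept its size when single libraries were left out, with log2 fold changes from -1.93 to -2.44. The adjusted p went above 0.05 when Dicer LKO replicate 1, 2 or 3 was left out (0.0813, 0.0506 and 0.0597). Its deposited counts were whole numbers in all 6 libraries. Of its 50-base stretches, 9.55% also occur in 4930534D22Rik, an RNA on the opposite strand, which had 1, 0 and 1 counts in Dicer LKO and 6, 5 and 8 in the controls, at most 0.451% of the counts of Cyp2u1. Without knowledge of the strand setting, reads of the 2 genes cannot be told apart where they overlap. The 8 heart muscle markers, a check for tissue from outside the liver, were summed at 1.05, 0.476 and 12.8 CPM in Dicer LKO and 14.2, 14.7 and 144 CPM in the controls, with 7 of them tested, all negative, none called and none at 0 in every library. Control replicate 3 was thus highest both for these markers and for Cyp2u1. Without control replicate 3 the log2 fold change of Cyp2u1 was -1.93 and the call held.

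The Cyp2c cluster on chromosome 19 holds the members whose Dicer LKO libraries stood highest above the controls. It runs, in GRCm38 and from low to high coordinates, through Cyp2c55, Cyp2c65, Cyp2c66, Cyp2c29, Cyp2c38, Cyp2c39, Cyp2c67, Cyp2c68, Cyp2c40, Cyp2c69, Cyp2c37, Cyp2c54, Cyp2c50 and Cyp2c70, and Cyp2c44 lies apart. Of the 13 tested, 8 had groups that did not overlap, 6 higher and 2 lower in Dicer LKO, where 28% of all genes tested did not overlap (12.7% higher and 15.4% lower). The 6 higher were Cyp2c38, Cyp2c39, Cyp2c68, Cyp2c40 and Cyp2c69, which are near neighbours, and Cyp2c70 at the end of the cluster. Between them lies Cyp2c67, whose groups overlapped.

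Cyp2c38, which forms epoxides of arachidonic acid, was the only member called higher. The gene (ENSMUSG00000032808.2) lies on chromosome 19, 39389556 to 39463075, minus strand (GRCm38). It was at 48.5, 62.8 and 31.6 CPM in Dicer LKO replicates 1, 2 and 3, against 19.9, 16.8 and 19.8 CPM in the controls. The controls were close together and all Dicer LKO libraries lay above them, replicate 2 highest. The means were 47.6 ± 15.6 and 18.9 ± 1.77 CPM (SD, n = 3 each), a log2 fold change of 1.34 (SE 0.24, adjusted p = 0.0494). The call sits at the threshold and was lost when any library except Dicer LKO replicate 3 was left out (adjusted p between 0.0721 and 0.144), while the log2 fold change stayed between 1.13 and 1.56. Of its 50-base stretches, 92.5% occur in no other gene, and its counts were whole in every library.

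Its neighbour Cyp2c39, a retinoic acid hydroxylase, was at 2.29, 6.29 and 3.19 CPM in Dicer LKO, against 1.08, 0.961 and 1.08 CPM in the controls. The groups did not overlap, at a level near the lower end of what was tested. The log2 fold change was 1.91 (SE 0.40, adjusted p = 0.0686), so the gene was not called.

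Cyp2c40, which hydroxylates arachidonic acid, was at 56.6, 82.9 and 10.0 CPM in Dicer LKO replicates 1, 2 and 3, and at 1.58, 2.26 and 5.16 CPM in the controls. Its close copy Cyp2c69 was at 19.2, 79.0 and 3.66 CPM in Dicer LKO and at 0.496, 0.48 and 1.98 CPM in the controls. In both genes Dicer LKO replicate 2 was highest and replicate 3 lowest, and control replicate 3 was the highest control. The groups did not overlap, but Dicer LKO replicate 3 lay nearer to the highest control than to the other Dicer LKO libraries. The log2 fold changes were 4.08 (SE 0.92, adjusted p = 0.0947) for Cyp2c40 and 5.18 (SE 1.39, adjusted p = 0.13) for Cyp2c69, the largest of the family, and neither was called.

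Cyp2c68 was more abundant by TPM and less variable, at 259, 266 and 201 CPM in Dicer LKO and 146, 109 and 108 CPM in the controls. Its groups did not overlap and the log2 fold change was 1.002 (SE 0.19, adjusted p = 0.0587), just short of the threshold. Cyp2c67 was at 254, 192 and 157 CPM in Dicer LKO and 237, 147 and 237 CPM in the controls, with a log2 fold change of -0.04 (SE 0.25, adjusted p = 0.946). The 4 genes Cyp2c40, Cyp2c67, Cyp2c68 and Cyp2c69 are so alike that only 39.7%, 47.2%, 56.7% and 45.7% of their 50-base stretches are unique to them, and their counts are in part estimates of how shared reads divide. Their sum, chosen after the values were seen, was 589, 620 and 373 CPM in Dicer LKO and 385, 259 and 352 CPM in the controls. Dicer LKO replicate 3 fell inside the control range.

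The stretches before the start of these genes show how alike they are. The 250 bases upstream are printed below for Cyp2c40 and Cyp2c69, which were highest above the controls, for Cyp2c67 and Cyp2c68, which share most of the sequence at smaller log2 fold changes, and for the called gene Cyp2c38. They come from RefSeq on build GRCm38.p6, read 5′ to 3′ on the strand of the gene. Capitals mark matches, on either strand, to 3 motifs: CAAAGTCCA, a form of the site of the nuclear receptor HNF4; ATCAAT, the core bound by Onecut and Cux factors; and TTGCNNAA, a form of the C/EBP site. No overlap between motifs occurs in these windows.
Cyp2c40, chr19:39812815-39813064, minus strand: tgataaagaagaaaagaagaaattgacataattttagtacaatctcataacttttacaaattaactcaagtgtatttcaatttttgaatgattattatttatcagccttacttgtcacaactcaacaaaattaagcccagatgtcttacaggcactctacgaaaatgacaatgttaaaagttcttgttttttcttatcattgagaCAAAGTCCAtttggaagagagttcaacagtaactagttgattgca
Cyp2c69, chr19:39886770-39887019, minus strand: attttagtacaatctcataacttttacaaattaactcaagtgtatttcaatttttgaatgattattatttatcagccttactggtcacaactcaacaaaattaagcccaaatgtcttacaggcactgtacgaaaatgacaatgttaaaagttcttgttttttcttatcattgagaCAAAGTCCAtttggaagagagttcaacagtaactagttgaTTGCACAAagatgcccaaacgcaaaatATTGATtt
Cyp2c68, chr19:39741102-39741351, minus strand: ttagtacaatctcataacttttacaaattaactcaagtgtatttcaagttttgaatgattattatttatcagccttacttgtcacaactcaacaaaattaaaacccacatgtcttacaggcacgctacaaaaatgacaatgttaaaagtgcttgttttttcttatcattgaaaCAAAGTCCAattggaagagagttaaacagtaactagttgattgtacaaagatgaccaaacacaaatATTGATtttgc
Cyp2c67, chr19:39649043-39649292, minus strand: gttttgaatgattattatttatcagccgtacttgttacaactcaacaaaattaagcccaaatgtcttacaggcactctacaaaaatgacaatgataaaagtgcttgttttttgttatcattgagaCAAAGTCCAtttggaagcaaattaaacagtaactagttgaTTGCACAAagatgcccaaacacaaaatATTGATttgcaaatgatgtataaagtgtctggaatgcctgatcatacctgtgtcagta
Cyp2c38, chr19:39463076-39463325, minus strand: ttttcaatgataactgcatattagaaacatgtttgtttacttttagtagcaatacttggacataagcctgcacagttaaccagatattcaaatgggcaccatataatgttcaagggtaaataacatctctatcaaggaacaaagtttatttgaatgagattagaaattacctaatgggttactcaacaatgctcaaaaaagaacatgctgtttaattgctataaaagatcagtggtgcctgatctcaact

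Where these windows overlap, Cyp2c40 and Cyp2c69 are identical at 98.6% of aligned positions, Cyp2c40 and Cyp2c68 at 95.0%, and Cyp2c40 and Cyp2c67 at 92.9%. Cyp2c38 shares 58.8% with Cyp2c40 and 83.2% with Cyp2c39. The windows are offset against each other, with CAAAGTCCA beginning 45 bases before the start of Cyp2c40, 75 before that of Cyp2c69, 77 before that of Cyp2c68 and 125 before that of Cyp2c67. The stretch that holds ATCAAT in Cyp2c67, Cyp2c68 and Cyp2c69 is outside the window of Cyp2c40. CAAAGTCCA stands in the windows of Cyp2c40, Cyp2c65, Cyp2c67, Cyp2c68, Cyp2c69 and Cyp2c70. This is 6 of the 42 windows found for 40 members (14.3%), against 0.384% of all 32851 windows of the table. ATCAAT was found in 5 member windows (11.9%, against 6.72% of all), and TTGCNNAA in 12 (28.6%, against 9.56%). TTCNNNGAA, the STAT motif, was found in 2 (4.76%, against 7.02%), and the long palindromic HNF1 site in none of them and in 3 windows of the table. Cyp2 windows are related by duplication, so these are not independent sites. Cyp2c67 and Cyp2c69, which carry matches to the same 3 motifs, had log2 fold changes of -0.04 and 5.18, a difference that was not tested.

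**Figure D3:**
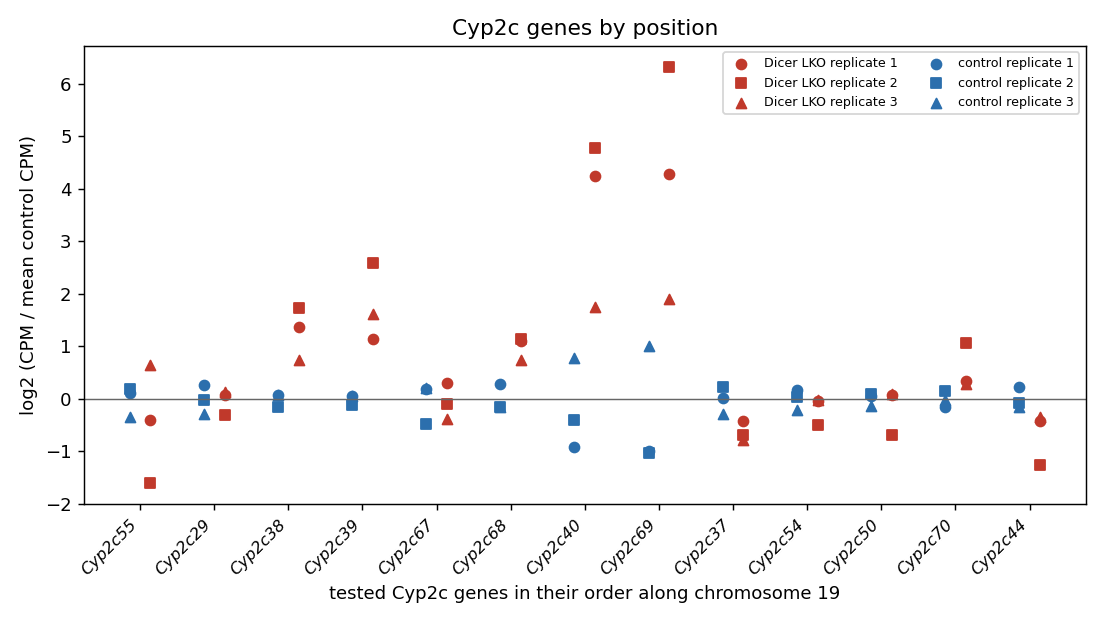
Each tested Cyp2c gene in its order along chromosome 19 (horizontal axis), with the log2 of the ratio of each library's CPM to the mean control CPM (vertical axis) for the 3 Dicer LKO (red) and 3 control libraries (blue). Dicer LKO points of Cyp2c38, Cyp2c39, Cyp2c68, Cyp2c40, Cyp2c69 and Cyp2c70 lie above all controls. Those of Cyp2c67 overlap the controls, and those of Cyp2c37 and Cyp2c44 lie below them.

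The most abundant genes of the cluster were not called. Cyp2c29, another arachidonic acid epoxygenase, was at 1021, 780 and 1063 CPM in Dicer LKO and 1167, 952 and 797 CPM in the controls. The groups overlapped, with a log2 fold change of -0.03 (SE 0.23, adjusted p = 0.963). Cyp2c50 (-0.13) and Cyp2c54 (-0.17), also epoxygenases, and Cyp2c55 (-0.18) were not called either. Of 3 genes named after their values were seen because their groups did not overlap, Cyp2c70, which makes the muricholic bile acids of mice, was at 523, 868 and 506 CPM in Dicer LKO and 373, 462 and 409 CPM in the controls (log2 fold change 0.61, SE 0.26, adjusted p = 0.227). Cyp2c37 was at 256, 214 and 199 CPM against 346, 405 and 283 CPM (-0.63, SE 0.20, adjusted p = 0.136). Cyp2c44, named Cyp2c23 in the GENCODE annotation, was at 198, 111 and 207 CPM against 307, 250 and 237 CPM (-0.62, SE 0.26, adjusted p = 0.218). None of the 3 passed the test.

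In the Cyp2a subfamily on chromosome 7, Cyp2a5, a coumarin 7-hydroxylase that also oxidises nicotine, was the most variable of the abundant members. It was at 604, 39.1 and 1113 CPM in Dicer LKO replicates 1, 2 and 3, and at 1172, 663 and 171 CPM in the controls. Both groups spanned a wide range and overlapped, and the log2 fold change of -0.19 (SE 1.18, adjusted p = 0.946) became 0.40 without Dicer LKO replicate 2 and 0.49 without control replicate 1. Cyp2a22 was low, at 6.97, 3.10 and 7.05 CPM in Dicer LKO and 2.48, 1.06 and 1.98 CPM in the controls. Its groups did not overlap and the log2 fold change was 1.63 (SE 0.42, adjusted p = 0.0922). Cyp2a4, the testosterone 15-alpha-hydroxylase, shares 36.1% of its 50-base stretches with Cyp2a5. It was at 4.54, 1.19 and 8.53 CPM in Dicer LKO and 1.98, 0.48 and 0.191 CPM in the controls, with overlap and a log2 fold change of 2.37 (SE 0.95, adjusted p = 0.228). Cyp2a12, a testosterone 7-alpha-hydroxylase, stood at 531 ± 63.8 and 422 ± 67.9 CPM (log2 fold change 0.33, adjusted p = 0.39).

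The Cyp2b genes, of which Cyp2b10 is the classical target of CAR, were expressed at low levels. Cyp2b9, the leading member, was at 10.0, 2.53 and 43.8 CPM in Dicer LKO replicates 1, 2 and 3, and at 6.13, 0.192 and 3.32 CPM in the controls. Dicer LKO replicate 3 stood apart from the rest, and the groups overlapped (log2 fold change 2.54, SE 1.36, adjusted p = 0.353). Without that library the log2 fold change was 0.96. Cyp2b10 was at 0.734, 0.238 and 1.39 CPM in Dicer LKO and 0.135, 0.24 and 0.638 CPM in the controls (1.31, SE 0.75, adjusted p = 0.362), that is 3 to 35 counts per library. Cyp2b13, not tested, had 12, 1 and 34 counts in Dicer LKO and 1, 0 and 4 in the controls. In Cyp2a4, Cyp2a5, Cyp2b9, Cyp2b10 and Cyp2b13, Dicer LKO replicate 3 was the highest and replicate 2 the lowest of their group. That order is the opposite of the one seen for Cyp2c40 and Cyp2c69.

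**Figure D4:**
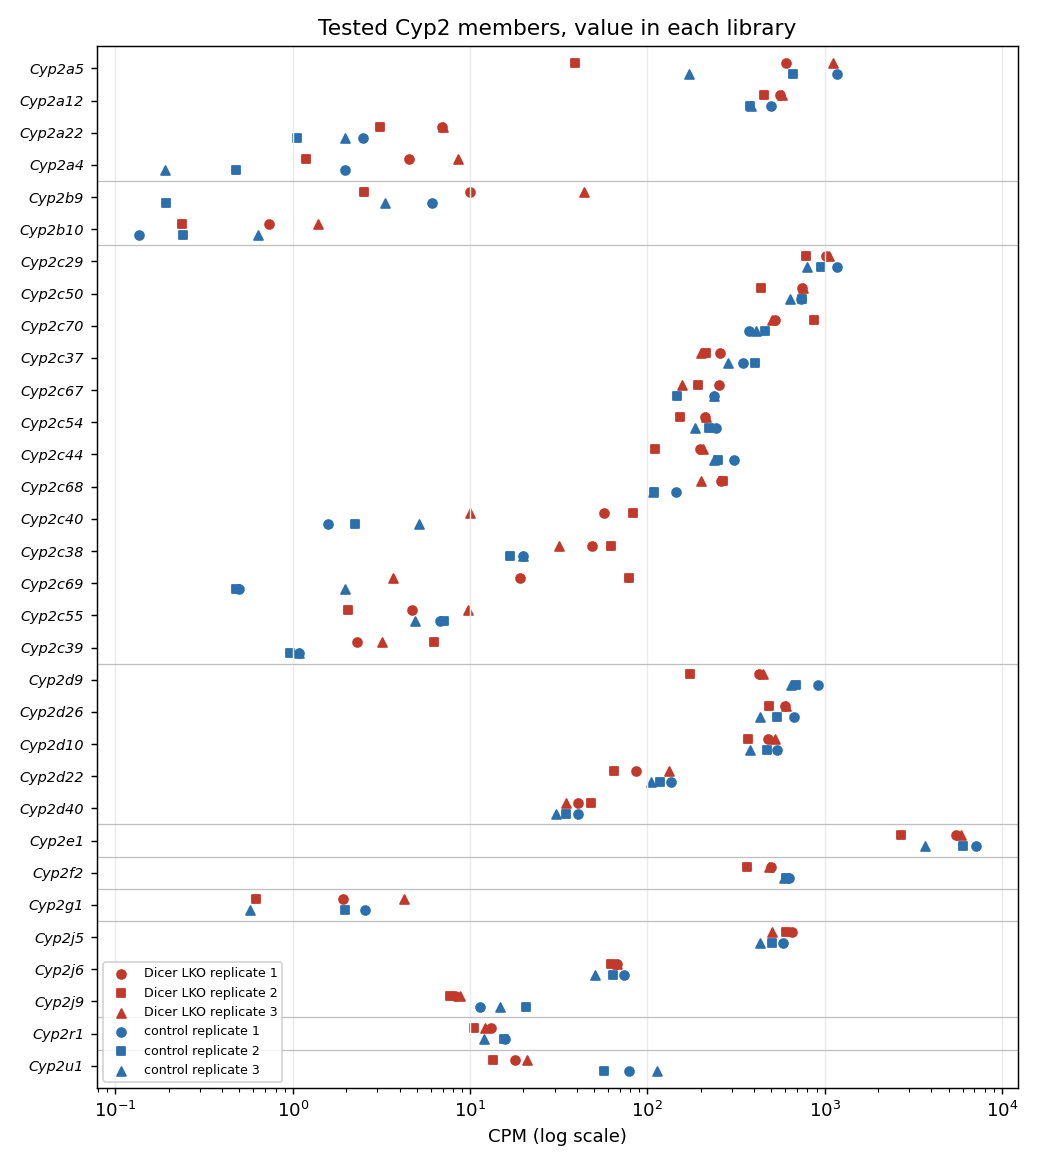
CPM of each tested Cyp2 member (horizontal axis, log scale) in each Dicer LKO library (red) and control library (blue), with the replicate given by the shape of the point. Red and blue separate widely for Cyp2u1, while for Cyp2c40 and Cyp2c69 the red triangle (10.0 and 3.66 CPM) lies close to the blue one (5.16 and 1.98 CPM). For the most abundant gene, Cyp2e1, the groups overlap between 3701 and 5847 CPM.

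Of the 5 tested genes of the Cyp2d cluster on chromosome 15, 1 had groups that did not overlap. Of all genes tested, 28% did not overlap (15.4% lower in Dicer LKO). Cyp2d9, the testosterone 16-alpha-hydroxylase known for its male bias, was at 427, 175 and 448 CPM in Dicer LKO replicates 1, 2 and 3, and at 915, 685 and 650 CPM in the controls. All Dicer LKO libraries were lower, replicate 2 lowest, but the log2 fold change of -1.10 (SE 0.36) did not pass the test (adjusted p = 0.148). Reads of Cyp2d9 are shared in part, since 78.2% of its 50-base stretches are unique. Its neighbours Cyp2d10 (-0.01), Cyp2d26 (0.05), Cyp2d22 (-0.34) and Cyp2d40 (0.22) were not called, with groups that overlapped.

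Among the Cyp2j genes on chromosome 4, Cyp2j5, an arachidonic acid epoxygenase of liver and kidney, was the highest by TPM, at 653, 605 and 508 CPM in Dicer LKO and 581, 507 and 431 CPM in the controls. The groups overlapped, with a log2 fold change of 0.22 (SE 0.20, adjusted p = 0.586), and Cyp2j6 gave 0.07. Cyp2j9, named after its values were seen, was at 8.21, 7.72 and 8.80 CPM in Dicer LKO and 11.3, 20.7 and 14.8 CPM in the controls. All Dicer LKO libraries were lower and close together, and the log2 fold change was -0.92 (SE 0.22, adjusted p = 0.0841).

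Of the subfamilies with 1 gene, Cyp2f2, which oxidises naphthalene and is periportal in liver, was at 497, 364 and 487 CPM in Dicer LKO and 632, 605 and 593 CPM in the controls. The groups did not overlap, but the log2 fold change was only -0.44 (SE 0.20, adjusted p = 0.247). Cyp2r1, a vitamin D 25-hydroxylase, was at 13.2, 10.5 and 12.2 CPM against 15.8, 15.5 and 12.1 CPM (-0.27, SE 0.16, adjusted p = 0.379). Cyp2g1, known from the olfactory mucosa, was at 1.93, 0.619 and 4.22 CPM against 2.57, 1.97 and 0.574 CPM. Its groups overlapped, and its log2 fold change of 0.39 (SE 0.74, adjusted p = 0.806) was -0.43 without Dicer LKO replicate 3. Cyp2s1, an enzyme of epithelia outside the liver, had 8, 2 and 11 counts in Dicer LKO and 7, 3 and 9 in the controls, too few to be tested.

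The members differ in what is known of their sex bias, and 9 of them are on a list of genes reported as female-biased in mouse liver (Cyp2a4, Cyp2b9, Cyp2b10, Cyp2b13, Cyp2c38, Cyp2c39, Cyp2c40, Cyp2c69 and Cyp2g1). Of the 8 tested, all had positive log2 fold changes, 1 was called (Cyp2c38), and 4 had higher groups that did not overlap. Of all genes tested, 0.741% were called higher and 12.7% were higher without overlap. Their median log2 fold change was 2.14. Their summed level was 144, 236 and 108 CPM in Dicer LKO and 33.9, 23.4 and 33.0 CPM in the controls, without overlap. The male-biased list held Cyp2d9 and Cyp2u1, both negative, with a sum of 445, 188 and 469 CPM against 994, 742 and 763 CPM. Outside family 2, only 6 of the 13 genes on the female-biased list had enough counts to be tested. Of these 6, 3 were called higher (Cyp39a1, Cux2 and Cyp3a44), where 0.741% of all genes were. Log2 fold changes were positive for 5 and negative for 1 (Acot3, -0.14), with a median of 3.58. That median includes Cyp3a41a (10.2), which was at 0 CPM in all controls and passed the filter through the Dicer LKO libraries. Of 12 male-biased genes outside family 2, 1 was called lower (Mup21), where 0.552% of all genes were, and all 12 were negative (median -2.24). Of them 9 were lower without overlap, where 15.4% of all genes tested were. Serpina1e (-8.18) overlapped, and was at 6425 CPM in control replicate 2 against 7.21 and 5.10 CPM in control replicates 1 and 3. In Dicer LKO it was at 7.06, 6.62 and 8.49 CPM. These lists were put together with results of these data known, so their counts are a description.

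Other groupings cut across the subfamilies. Of 10 members reported as inducible through CAR or PXR, 8 were tested, 2 were positive and none was called (median -0.15). Of 7 members reported as pericentral, 1 was called higher, Cyp2c38, where 0.741% of all genes were, and 6 were negative (median -0.17). Those lists share Cyp2a5, Cyp2c29, Cyp2c37, Cyp2c50 and Cyp2c54.

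Genes known to control or serve the P450 enzymes mostly did not pass the test. Of 21 nuclear receptors and transcription factors, 1 was called, where 1.29% of all genes were. This was the homeobox gene Cux2, which is female-biased in liver and rose by a log2 fold change of 2.75 (SE 0.45, adjusted p = 0.0398). Its levels were low, at 1.97, 5.53 and 3.19 CPM in Dicer LKO and 0.541, 0.624 and 0.383 CPM in the controls. The median of the list was -0.05. Nr1i3, which encodes CAR, gave 0.01, Nr1i2, which encodes PXR, gave 0.24, and Hnf4a gave 0.09. The groups did not overlap for 4 of the 21, where 28% of all genes tested showed no overlap. These 4 were Cux2, Cebpb (0.79, adjusted p = 0.0918), Bcl6 (-2.07, adjusted p = 0.118) and Nr0b2 (-1.55, adjusted p = 0.109). Onecut1 gave -2.14 with overlap (adjusted p = 0.229). Of 6 electron transfer partners none was called (median -0.29). Por was positive at 0.27 and 5 were negative. Among them 3 were lower without overlap, where 15.4% of all genes tested were. These were Cyb5b (-0.81, adjusted p = 0.0888), Pgrmc1 (-0.31) and Pgrmc2 (-0.27). Of 12 genes of haem synthesis and breakdown none was called (median 0.09), the rate-limiting enzyme gene Alas1 having 0.18. Of 18 other reported targets of CAR and PXR none was called (median -0.24), Cyp3a11 having 0.51.

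In other P450 families, 1 of 6 tested Cyp3a genes was called higher (9 genes in all) and 1 of 14 tested Cyp4 genes (20 in all), where 0.741% of all genes were, and none was called lower. Whether family 2 differs from them was not tested.

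Several features of the libraries ran alongside these values. Dicer LKO replicate 2 was the lowest of its group for 22 of the 32 tested members and the lowest of all 6 libraries for 14, yet the highest of all 6 for 7. Control replicate 3 was the lowest control for 20. These ranks were counted for the members only, so they do not show whether other genes follow the same order. The 12 acute phase genes, which the liver raises in inflammation, were summed at 24285, 61518 and 19551 CPM in Dicer LKO and 7555, 24855 and 4729 CPM in the controls. Dicer LKO replicate 2 was thus highest, and the range of the groups overlapped. All 12 had positive log2 fold changes (median 1.45) and none was at 0. Of them 1 was called higher (Cebpd), where 0.741% of all genes were. Leaving out the highest library of each group, replicate 2 in both, gave 0.10 for Cyp2e1 in place of -0.27, and for Cyp2u1 -2.26 with an adjusted p of 0.0517. No member was called in that smaller comparison, in which 0.158% of all genes were.

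Markers of some other cells also differed between the groups. The 9 bile duct markers were summed at 145, 180 and 273 CPM in Dicer LKO and 38.2, 54.6 and 40.9 CPM in the controls. Of the 8 tested, 3 were called higher, where 0.741% of all genes were. The 7 red blood cell markers reached 1141, 1791 and 2132 CPM against 376, 278 and 338 CPM, with 6 called higher. In either direction, 1.29% of all genes tested were called. The sums for macrophages (11 genes), stellate cells and fibroblasts (9), endothelium (7) and neutrophils (8) had 0, 1, 1 and 0 genes called. Their means (SD, n = 3) were 581 ± 51.0 and 383 ± 158 CPM for macrophages, 577 ± 35.1 and 430 ± 34.4 CPM for stellate cells and fibroblasts, 425 ± 64.7 and 299 ± 33.5 CPM for endothelium, and 50.7 ± 24.5 and 12.7 ± 10.9 CPM for neutrophils, Dicer LKO first. None of these genes was at 0 in all libraries. The macrophage sums overlapped, at 599, 523 and 620 CPM in Dicer LKO and 347, 556 and 246 CPM in the controls. Among the stellate and fibroblast markers, Des was at 62.5 CPM in control replicate 3, against 3.43 and 4.32 CPM in control replicates 1 and 2. The sums for kidney, pancreas and fat were at most 2.10 CPM in every library, and Aqp2, Slc12a1, Slc34a1 and Kap of kidney, Cel, Cpa1 and Prss1 of pancreas and Lep of fat were at 0 in all 6. Gut epithelium markers were summed at 17.3 to 35.7 CPM in Dicer LKO and 18.0 to 35.7 CPM in the controls, with Cdx1, Cdx2 and Alpi at 0. Lung and airway markers were summed at 0.598 to 0.688 CPM and 0.638 to 4.13 CPM, with Sftpc, Sftpb, Scgb1a1 and Scgb3a2 at 0. The part of acute phase genes and of other cells in the Cyp2 values was not tested.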

How the data were processed

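Each sample's deposited table gives, per the file headers, an expected count, a TPM value and an FPKM value for each of 50600 genes. The expected count estimates the reads of a gene and is not normalized, so reads that match several genes are divided among them. TPM and FPKM are corrected for gene length, and the deposited FPKM values and a further count table of the whole series were not used. The submitters' processing notes name Bowtie and CASAVA without a version and the human build hg19, although the gene identifiers are mouse. Gene counter, mouse build, annotation, read length, kit and strandedness were not given in the sources used here. Of the identifiers, 50376 (99.56%) matched GENCODE M21 (GRCm38), all 48 members among them, and gene coordinates were taken from there. Groups and replicate numbers came from the sample titles and genotypes.

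The deposited expected counts were rounded (96.0% to 96.5% were whole already, to the decimals given). The Dicer LKO libraries summed to 22257541, 23436696 and 25049749 counts, and the control libraries to 22152506, 20539847 and 14141973. After filterByExpr, 14314 genes were scaled by TMM and tested with edgeR 4.0.16 (R 4.3.3; glmQLFit robust, glmQLFTest) with genotype as the only term. All p-values were adjusted over the whole table by Benjamini-Hochberg. The same fit was run with members summed by subfamily and over the family. The code was tested on simulated data. Uniqueness of reads was estimated as the share of 50-base stretches of a gene's transcripts that occur in no other gene. Promoter windows, 250 bases before the RefSeq start, matched 40 of 48 members.

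Values in every library are given for called members, for those whose groups do not overlap at a log2 fold change of at least 1 in size, and for the member of highest TPM in each subfamily. Of the related lists, called members and a few central genes are named. The members and lists were chosen with earlier results of these data known, and list counts have no test. Alternatives were library totals, DESeq2 1.42.0 size factors and test, limma 3.58.1 with voom, limma on log2(TPM + 1), no filter, a replicate block, and each replicate left out. An alternative added after seeing the data leaves out the library with the highest acute phase level of each group.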

Additional observations from a re-analysis of the deposited data

How the results depend on the processing

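The lower call of Cyp2u1 held under every scaling, test and filter tried, with log2 fold changes from -1.97 to -2.37 over them, and also without any 1 control library. It was lost without any 1 Dicer LKO library, and with 2 libraries per group. The higher call of Cyp2c38 held with DESeq2's test, without a filter and without Dicer LKO replicate 3. The number of members called higher, 1, became 0 with library totals, DESeq2 size factors, voom and TPM, 7 with DESeq2's test (Cyp2a4, Cyp2a22, Cyp2c38, Cyp2c39, Cyp2c40, Cyp2c68 and Cyp2c69), 3 without a filter (Cyp2c38, Cyp2c39 and Cyp2c68), and 0 to 1 with a replicate left out (1 without Dicer LKO replicate 3, Cyp2c38, or without control replicate 1, Cyp2c68). The number called lower, 1, became 4 with DESeq2's test (Cyp2c37, Cyp2d9, Cyp2j9 and Cyp2u1), 2 without a filter, and 0 to 2 with a replicate left out (0 without any 1 Dicer LKO library, and 2 without control replicate 1, Cyp2j9 and Cyp2u1). DESeq2's test called 1160 genes in all, 8.10% of those tested, against 185 (1.29%) for edgeR. Without a filter, 422 of 23659 genes were called (1.78%). The number was 103 (0.720%) with library totals, 104 (0.727%) with voom and 94 (0.657%) with TPM. With a replicate left out, 23 to 389 genes were called (0.157% to 2.63%). The cause of these differences between tests was not tested. The number of subfamily sums called, 1, was 0 to 1 with a replicate left out, 0 being without any 1 Dicer LKO library.

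None of the sums that changed sign was called. The Cyp2a sum (0.04) was -0.023 with library totals, -0.064 by TPM and -0.38 to 0.49 with a replicate left out. The Cyp2c sum (0.05) was -0.060 with library totals and -0.050 by TPM. The Cyp2e sum, which is Cyp2e1, ran from -0.48 to 0.0475 with a replicate left out, the Cyp2g sum, which is Cyp2g1, from -0.43 to 0.87, and the family sum from -0.30 to 0.069. Cyp2a5 ran from -1.05 to 0.49 and Cyp2c29 from -0.13 to 0.14, with 0.40 and 0.14 without Dicer LKO replicate 2 and 0.49 and 0.13 without control replicate 1. The Cyp2u sum ran from -1.93 to -2.44, with adjusted p from 0.0331 to 0.0806.

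Without the library of highest acute phase level in each group, an alternative chosen after seeing the data, 0 members and 0 subfamily sums were called. The values were then -2.26 for the Cyp2u sum (adjusted p = 0.0518), 0.097 for Cyp2e1 and the Cyp2e sum, 0.082 for the family sum, 0.40 for Cyp2a5 and 0.12 for Cyp2c29. That fit has 2 libraries per group.

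The labels do not say whether the replicate numbers pair the samples. Deviations from the group means of same-numbered libraries correlated at 0.109, 0.0642 and -0.101, and not every library correlated best with its own number. With 3 libraries per group these values cannot decide the question. With the replicate block, 2 members were called higher (Cyp2a22 and Cyp2c68), 1 lower (Cyp2u1) and 1 subfamily sum. In that fit 245 genes were called in all, 1.71% of those tested, and the Cyp2a sum was -0.023.

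With 3 libraries per group, members whose libraries differ widely, such as Cyp2a5, Cyp2b9 and Cyp2c69, have standard errors above 1 on the log2 scale in edgeR's fit. Members with few counts, such as Cyp2b10 with 3 to 35 per library, also have counting error, which was not separated from the spread between libraries. For the 13 tested members with fractional counts, levels depend on how reads were divided.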
